A study of Rattus norvegicus with 20 samples.

Results

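The rat circadian clock genes Per1, Per2, Per3, Cry1, Cry2, Clock, Dbp, Tef, Nr1d1 and Nr1d2 were followed in the ovaries of 20 young females. Their probes were found by the transcript that the array design names for each probe, which gave 15 probes for the 10 genes, of 30367 probes and 15715 named genes on the array. All 15 lay well above background on at least 4 arrays and so were among the 23258 probes tested. Dbp and Per3 had 3 probes each, Clock had 2 and each other gene had 1, and a gene's values are those of its brightest probe unless another is named.

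The animals were Sprague-Dawley daughters of dams whose feed carried brominated flame retardants, chemicals used in plastics and furnishings. The retardants were DE-71 (52.1%), BDE-209 (44.2%), hexabromocyclododecane (3.3%) and DE-79 (0.4%), mixed before they went into the feed, and feeding began before mating and ended when pups were weaned on postnatal day 21. Plain feed stood for 0 mg/kg/day, and feed with 0.75, 250 or 750 mg of the mixture in each kg was planned to bring the dams to 0.06, 20 or 60 mg/kg/day. The 4 groups held 5, 4, 5 and 6 daughters from the lowest dose to the highest. Whole ovaries were taken on postnatal day 46, and every group shares strain, sex, tissue and age. The hour of kill is not given in the sources used here. In whole-tissue RNA, fewer cells of a type and less RNA per cell cannot be told apart.

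In mammals the clock is a feedback loop of transcription. CLOCK and its partner BMAL1 bind E-boxes and switch on the Per and Cry genes, the Nr1d genes and Dbp; the PER and CRY proteins then hold CLOCK and BMAL1 back. The NR1D proteins, also called REV-ERB, bind response elements of the ROR type and repress Bmal1 and Cry1, while DBP and TEF are proline and acidic amino acid-rich factors that activate genes through D-boxes. Ovarian granulosa, theca and luteal cells are known to carry this clock, and most of these transcripts are known to vary with the hour of the day.

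Promoter windows show where 3 kinds of clock element lie near these genes. A RefSeq table of assembly GRCr8 gave 250 bases before and 50 after each start, and 9 of the 10 genes matched, with 11 windows; Cry1 had no entry. CACGTG (E-box), TTATGTAA and TTACGTAA (D-box), TAGGTCA and TGGGTCA (the core of the ROR-type element) and TGACGTCA (cAMP response element) were searched on both strands. Only the bases upstream of the start are printed, with the match in capitals, for the 3 members that held one and for Bmal1, the partner of CLOCK.
Per2, chr9:99497118-99497243, minus strand: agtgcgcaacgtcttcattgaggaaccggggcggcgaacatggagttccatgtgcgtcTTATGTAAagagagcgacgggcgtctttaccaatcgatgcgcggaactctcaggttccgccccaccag
Tef, chr7:115206577-115206694, plus strand: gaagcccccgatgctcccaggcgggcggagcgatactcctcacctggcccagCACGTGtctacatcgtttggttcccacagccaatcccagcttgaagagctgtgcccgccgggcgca
Nr1d1, chr10:84229580-84229704, minus strand: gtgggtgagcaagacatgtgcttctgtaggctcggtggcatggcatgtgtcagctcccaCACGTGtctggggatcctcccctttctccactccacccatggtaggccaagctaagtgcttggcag
Bmal1, chr1:176766252-176766327, plus strand: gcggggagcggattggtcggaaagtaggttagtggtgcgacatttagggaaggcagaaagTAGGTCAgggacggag

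The Per2 window held TTATGTAA at 192 to 185 bases upstream of the start, and 0.893% of the 33469 promoters in the table hold this D-box. CACGTG, held by 6.42% of promoters, lay 198 to 193 bases upstream in Tef and 191 to 186 bases upstream in 1 of the 2 Nr1d1 windows. TAGGTCA lay 16 to 10 bases upstream of Bmal1, and 2.63% of promoters hold it. TTACGTAA, TGGGTCA and TGACGTCA, held by 0.12%, 4.09% and 1.83% of promoters, were not matched in any member's window, nor were the other elements in Per1, Per3, Cry2, Clock, Dbp and Nr1d2. A match is a description of these letters, and no match speaks only of these windows.

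The members differed in how far they spread between ovaries. A value is the log2 processed signal of a probe less that of the array's 75th percentile, so values compare arrays for 1 probe and not 1 gene with another. Nr1d1, encoding the repressor REV-ERB alpha, ran from -4.64 to -1.80 over the 20 arrays, a 7.15-fold range. Its residual SD within dose groups was 0.744, at the 92.6th percentile of all probes tested, whose median was 0.275.

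Nr1d2, encoding REV-ERB beta, had a range of 2.17 log2, Per2 1.91, Dbp 1.53, Tef 1.17, Cry1 1.14, Per3 0.98, Per1 0.93 and Cry2 0.78. Clock, the E-box activator itself, was the steadiest of the 10 by its brightest probe. That probe had a range of 0.63 log2 and a residual SD of 0.204 at the 32.3rd percentile. The second Clock probe had a range of 0.90 log2, wider than that of Cry2, and a residual SD of 0.276 at the 50.1st percentile. The 3 Dbp probes moved together across arrays: the others correlated with the brightest at r = 0.983 and 0.976. The second Clock probe correlated with the first at r = 0.604, and the other Per3 probes with the brightest at r = 0.443 and 0.064; of the 15 probes, only the dimmest Per3 probe fell short of being well above background on all 20 arrays, with 13.

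**Figure D1:**
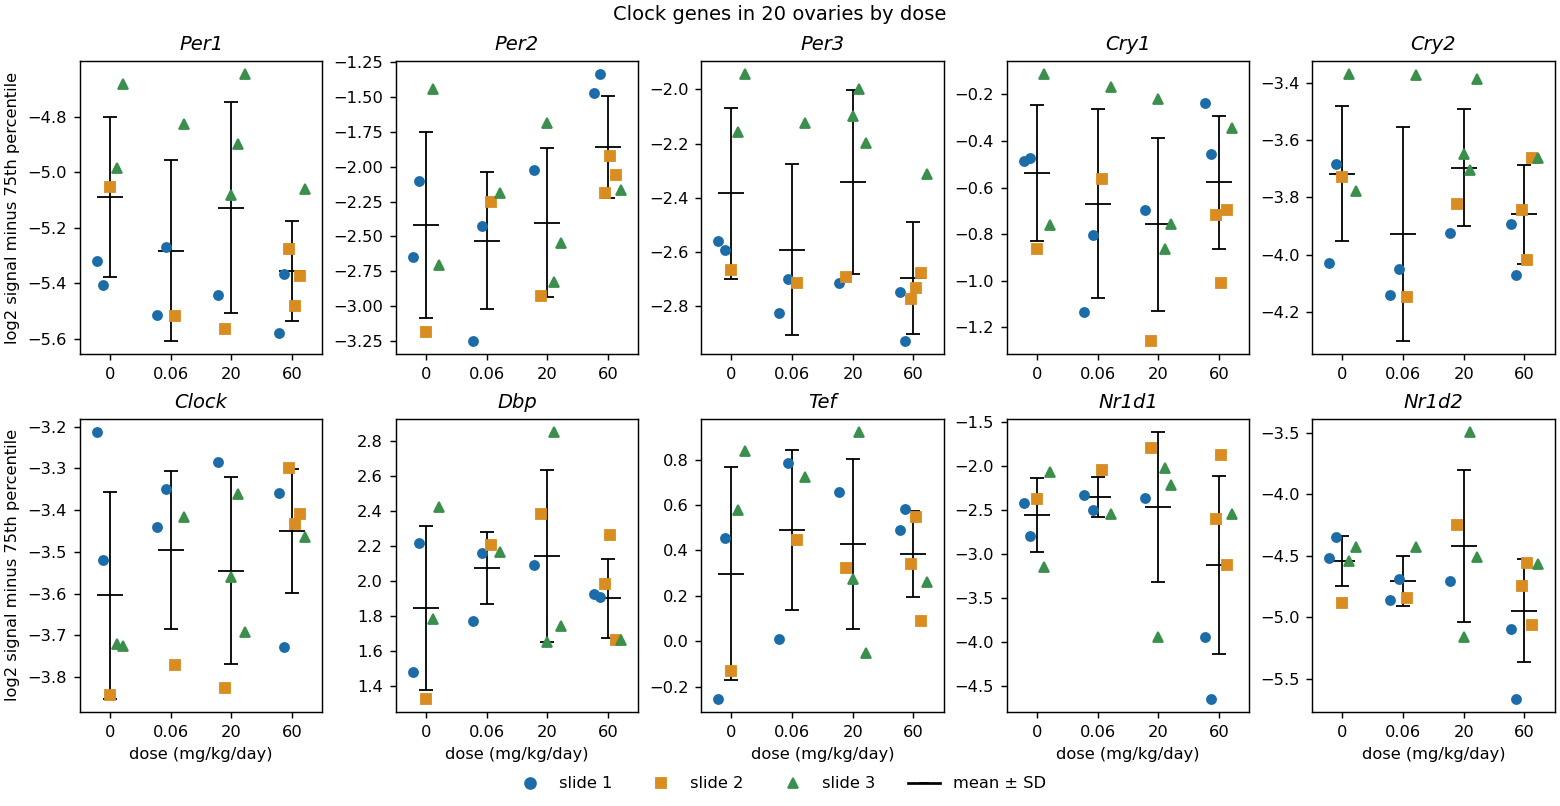
Level of each clock gene in the 20 ovaries, as log2 signal minus the 75th percentile of the array, by dose in mg/kg/day (0, 0.06, 20 and 60). Each point is 1 ovary, its shape and colour give the slide, and bars show mean ± SD; Nr1d1 has 3 ovaries below -3.9, and the slide 3 points of Per3 lie above all others.

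Per1, Per3 and Cry2 moved with the slide on which an array lay. The arrays came on 3 slides with 7, 6 and 7 arrays, each slide holding all 4 groups, and 19.2% of all probes differed in limma's joint test of the 3 slides with dose in the fit. Per3, a PER family member with a lesser part in the core loop, averaged -2.12 on slide 3, -2.71 on slide 2 and -2.72 on slide 1, and slide 3 exceeded slide 1 by 0.58 (joint limma test, adjusted p = 2.62e-06). Every slide 3 value of Per3 was at or above -2.31, while no value on the other slides was above -2.56. The other Per3 probes differed by 0.08 and -0.20 between slides 3 and 1 and did not pass (joint limma test, adjusted p = 0.350 and 0.669).

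Per1, a core repressor of CLOCK and BMAL1, was 0.53 higher on slide 3 than on slide 1 (joint limma test, adjusted p = 0.000713). Cry2, whose protein joins PER in repression, was 0.40 higher (joint limma test, adjusted p = 0.0241). The other 7 members did not pass this test, and what differed between the slides was not tested.

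Whether the members rise and fall together between ovaries was asked with 45 pairwise correlations over the 20 arrays. Of these, 9 pairs passed at a Benjamini-Hochberg adjusted p under 0.05 in a two-sided permutation test of Pearson's r with 100000 resamples, 7 of them positive and 2 negative; 8 passed by Spearman's rho. After slide means were removed 6 pairs passed, all of them among the 9. The 3 lost were Per1 with Per3, Per1 with Cry2 and Per3 with Cry2, the genes that differed between slides. With quantile normalization and with normexp 7 pairs passed, 4 positive and 3 negative: the same 3 pairs were lost and Per2 with Nr1d2 was gained, at r = -0.58 (permutation adjusted p = 0.0390) and -0.59 (permutation adjusted p = 0.0381). Normexp also lost Dbp with Nr1d2 and gained Per1 with Nr1d1, at r = 0.63 (permutation adjusted p = 0.0380). Genes outside the clock were as closely tied to some members. On deviations from dose means Nr1d1 had r = 0.70 with Nr1d2, -0.66 with Per2 and -0.65 with Cry1, and Per2 had 0.79 with Cry1. The strongest named genes outside the clock reached 0.86 and -0.78 with Nr1d1, and 0.81 and -0.82 with Per2. Those values are the extremes picked from many probes, so they cannot tell whether a pair that passed is particular to the clock genes.

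Within slides 1, 2 and 3, Per1 and Per3 had r = 0.29, 0.18 and 0.38. Per1 and Cry2 had r = -0.16, 0.55 and 0.14 within these slides, and Per3 and Cry2 had r = 0.54, 0.46 and -0.45. With slide means removed these pairs had r = 0.27, 0.23 and 0.07, and none passed. With 6 or 7 arrays a slide, these values cannot show that the relations are absent within slides.

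Dbp and Tef, paralogous D-box activators, rose and fell together in every slide. In the 5 ovaries at 0 mg/kg/day Dbp was 1.48, 2.22, 1.33, 1.78 and 2.42, and Tef in the same ovaries was -0.25, 0.46, -0.13, 0.58 and 0.84. At 0.06 mg/kg/day Dbp was 1.77, 2.16, 2.21 and 2.17 and Tef 0.01, 0.79, 0.45 and 0.72. At 20 mg/kg/day Dbp was 2.09, 2.39, 1.65, 2.85 and 1.74 and Tef 0.66, 0.32, 0.28, 0.92 and -0.05. In this group the ovary highest in Dbp was also the highest in Tef.

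The 6 ovaries at 60 mg/kg/day had Dbp with a lowest value of 1.66, a median of 1.92 and a highest value of 2.27, and Tef with 0.09, 0.41 and 0.58. The dose groups overlapped in both genes, ovaries low in Dbp were in the main low in Tef, and the ovary highest in both was replicate 4 at 20 mg/kg/day. Over all 20 arrays r was 0.80 (permutation adjusted p = 0.000675) and rho 0.75 (adjusted p = 0.0039). Within the slides r was 0.87, 0.91 and 0.84, and without the 2 arrays farthest from the median of Dbp it was 0.72.

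Per2 and Nr1d1 moved in opposite directions. Per2 encodes a core repressor, and Nr1d1 the repressor that acts on Bmal1. At 0 mg/kg/day Per2 was -2.65, -2.10, -3.19, -1.44 and -2.71, with Nr1d1 at -2.42, -2.80, -2.38, -3.15 and -2.07. At 0.06 mg/kg/day Per2 was -3.25, -2.43, -2.25 and -2.19, with Nr1d1 at -2.34, -2.50, -2.05 and -2.55. At 20 mg/kg/day Per2 was -2.02, -2.93, -1.68, -2.83 and -2.55, with Nr1d1 at -2.36, -1.80, -3.94, -2.02 and -2.21. In this group the ovary highest in Per2 was the lowest in Nr1d1.

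At 60 mg/kg/day Per2 had a lowest value of -2.19, a median of -1.99 and a highest of -1.34, and Nr1d1 had -4.64, -2.87 and -1.88. The 3 lowest Nr1d1 values were in replicates 2 and 1 at 60 mg/kg/day and replicate 3 at 20 mg/kg/day, where Per2 was -1.34, -1.47 and -1.68, among the highest of the series. The dose groups overlapped in both genes. Over all arrays r was -0.73 (permutation adjusted p = 0.00292) and rho -0.69 (adjusted p = 0.00936). Slides 1, 2 and 3 gave -0.83, -0.24 and -0.88, and without the 2 arrays farthest from the median of Per2 r was -0.81.

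Without the 3 arrays lowest in Nr1d1, an exclusion chosen after the data were seen, r was -0.53 over 17 arrays (permutation p = 0.0304, unadjusted). The relation was weakest on slide 2, which held none of those 3 arrays.

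**Figure D2:**
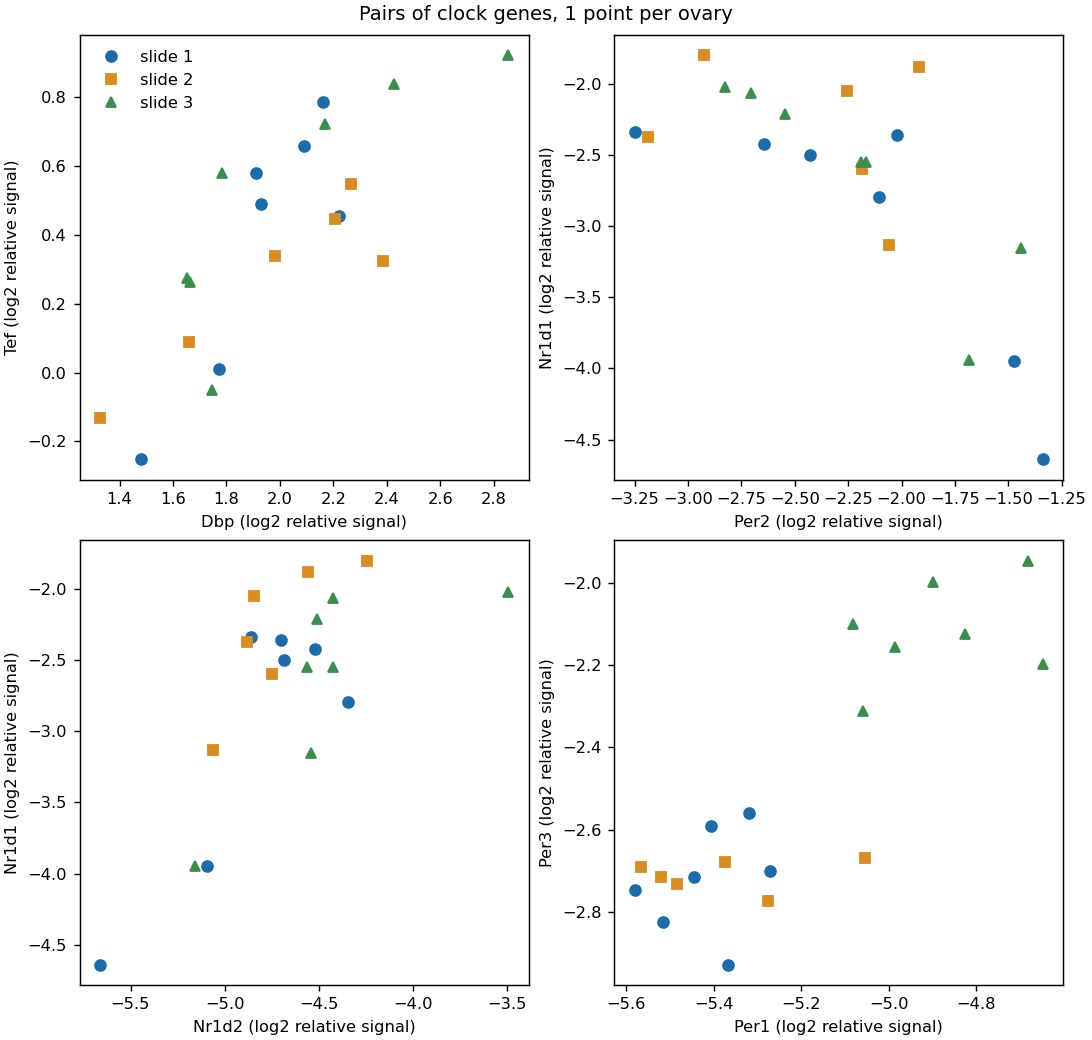
Log2 relative signal of 4 pairs of clock genes, with 1 point per ovary and the slide as shape and colour. Dbp and Tef rise together on each slide, Nr1d1 is low where Per2 is high and where Nr1d2 is low, and Per1 and Per3 separate slide 3 from slides 1 and 2.

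Cry1, a CRY repressor whose gene is a known target of NR1D1, went with Per2 and against Nr1d1. It was -0.48, -0.47, -0.86, -0.11 and -0.76 at 0 mg/kg/day, -1.14, -0.81, -0.57 and -0.17 at 0.06, and -0.70, -1.26, -0.22, -0.86 and -0.76 at 20. At 60 mg/kg/day its lowest, median and highest values were -1.01, -0.58 and -0.24. All groups overlapped, and the lowest single value was in replicate 2 at 20 mg/kg/day, the ovary with the highest Nr1d1.

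Cry1 and Per2 had r = 0.71 (permutation adjusted p = 0.00418) and rho = 0.69 (adjusted p = 0.00998), with 0.80, 0.42 and 0.91 within the slides and 0.65 without the 2 arrays farthest from the median of Per2. Cry1 and Nr1d1 had r = -0.63 (adjusted p = 0.0152) and rho = -0.77 (adjusted p = 0.0039), with -0.62, -0.58 and -0.75 within the slides and -0.58 without the 2 arrays farthest from the median of Cry1. Without the 3 arrays lowest in Nr1d1 it was -0.64 (permutation p = 0.00555, unadjusted).

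The paralogs Nr1d1 and Nr1d2 rose and fell together. Nr1d2 was -4.52, -4.35, -4.88, -4.54 and -4.42 at 0 mg/kg/day, -4.86, -4.69, -4.84 and -4.43 at 0.06, and -4.70, -4.25, -5.16, -3.49 and -4.51 at 20. At 60 mg/kg/day its lowest, median and highest values were -5.66, -4.90 and -4.56. The 3 ovaries lowest in Nr1d1 were also the 3 lowest in Nr1d2, and all groups overlapped.

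Over 20 arrays this pair had r = 0.72 (permutation adjusted p = 0.00292) and rho = 0.56 (adjusted p = 0.0545), with 0.85, 0.80 and 0.76 within the slides. It fell to 0.52 without the 2 arrays farthest from the median of Nr1d1. Without the 3 arrays lowest in Nr1d1 r was 0.38 (permutation p = 0.139, unadjusted), so the pair did not pass without them; slide 2, where r was 0.80, held none of these 3 arrays.

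Dbp and Nr1d2, both known E-box targets, had r = 0.60 (permutation adjusted p = 0.0287) and rho = 0.59 (adjusted p = 0.0404). Within slides 1, 2 and 3 r was 0.11, 0.73 and 0.85. It was 0.37 without the 2 arrays farthest from the median of Dbp and 0.38 without replicate 4 at 20 mg/kg/day alone, so the relation rests largely on that ovary. Clock passed with none of the 9 other members, its r running from -0.21 to 0.14, and with Per1, Per2 and Per3 it had r = -0.21, 0.10 and -0.12. No opposition of the Per genes to Clock was detectable at this number of arrays.

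**Figure D3:**
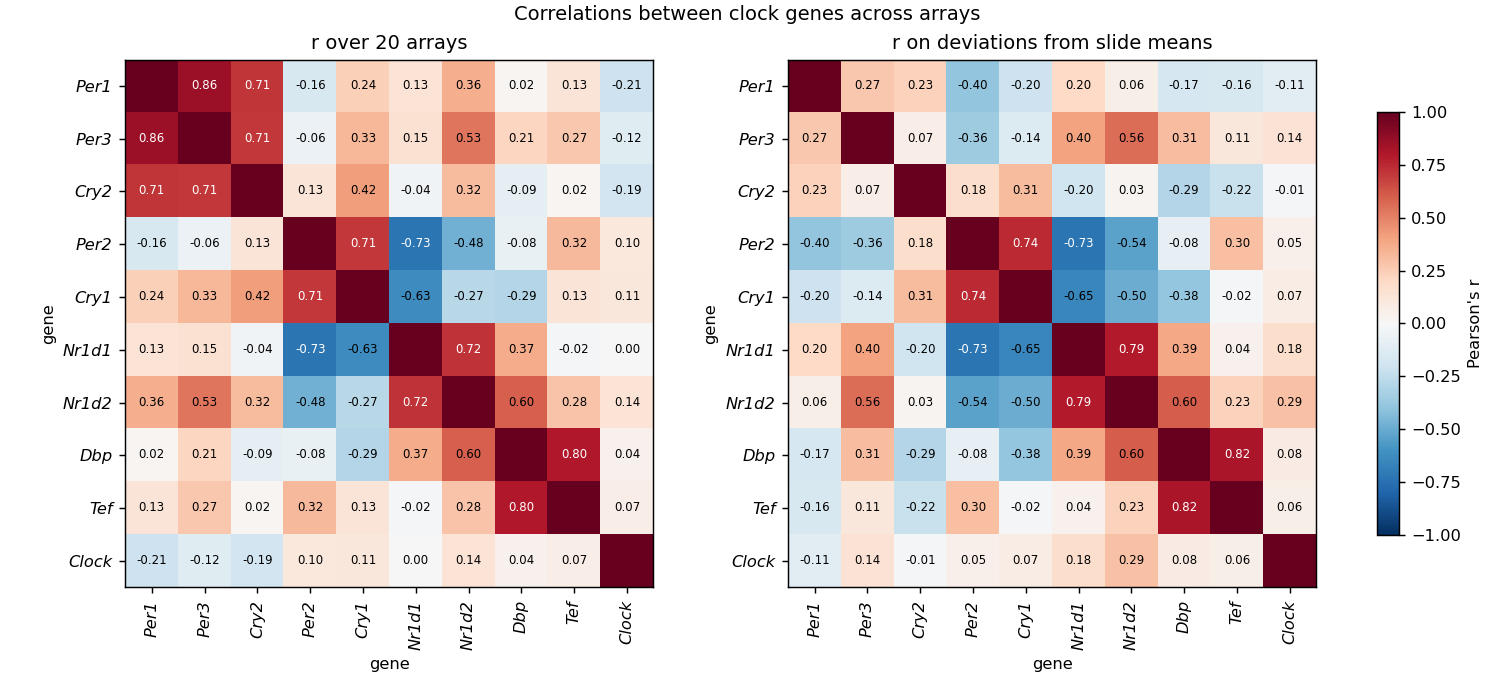
Pearson's r for each of the 45 pairs of clock genes over 20 arrays (left) and on deviations from slide means (right); red is positive, blue negative, and each cell gives r. The block of Per1, Per3 and Cry2 fades on the right, while Per2 with Cry1, Nr1d1 with Nr1d2, Dbp with Tef and the negative cells of Nr1d1 with Per2 and Cry1 remain.

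One ovary stood at the end of several clock genes at once. Replicate 4 at 20 mg/kg/day had the highest Dbp (2.85), Tef (0.92) and Nr1d2 (-3.49) of the 20. The same ovary had the lowest Bmal1 (-0.76), Npas2 (-1.50) and Nfil3 (-2.67), genes of the CLOCK partner, a CLOCK paralog and a D-box repressor that opposes DBP. Replicate 2 at 60 mg/kg/day held the opposite end for Nr1d2 (-5.66) and had the lowest Nr1d1 (-4.64) and the highest Per2 (-1.34). It also had the lowest Per3 (-2.93), so 2 Per genes lay at opposite ends in this ovary. Among the other clock genes it was lowest in Bmal2 (-4.00), Prkaa1 (-3.34) and Usp2 (-0.16) and highest in Timeless (-1.14), Tipin (0.33) and Wee1 (-0.80), a cell-cycle kinase gene.

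No dose difference was detected in the clock genes. At 0.06, 20 and 60 against 0 mg/kg/day limma called 0 of all 23258 probes at an adjusted p under 0.05, and 3.05%, 4.58% and 6.29% had an unadjusted p under 0.05. Of the 10 members, 0 had an unadjusted p under 0.05 at any dose. In the joint test of the 3 doses 0 probes passed; 3.17% had an unadjusted p under 0.05, and 0 of the members did.

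Groups that did not overlap with 0 mg/kg/day were seen in 0.632%, 0.602% and 0.464% of all probes at the 3 doses, and in 0 of the 10 members. The median difference of the members was -0.12, 0.05 and -0.09 log2 at 0.06, at 20 and at 60 mg/kg/day. Of the 10 members 4, 8 and 4 had a positive difference. No member difference passed the test.

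Per2 at 60 mg/kg/day had the smallest unadjusted p of the 30 member differences, 0.0771 in limma. It averaged -1.86 ± 0.36 at 60 mg/kg/day (SD, n = 6) and -2.42 ± 0.67 at 0 mg/kg/day (SD, n = 5), a difference of 0.56 ± 0.30 log2 (SE; limma, adjusted p = 0.786). The 95% interval ran from -0.07 to 1.19. Within slides 1, 2 and 3 the difference was 0.97, 1.13 and -0.09. These rest on 2 ovaries at 60 against 2 at 0 mg/kg/day, 3 against 1 and 1 against 2.

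Nr1d1 averaged -3.12 ± 1.01 at 60 mg/kg/day (SD, n = 6) and -2.56 ± 0.42 at 0 mg/kg/day (SD, n = 5), a difference of -0.56 ± 0.43 (SE; limma, adjusted p = 0.817) with an interval of -1.46 to 0.33. Its within-slide differences were -1.68, -0.16 and 0.06, and both ovaries below -3.9 at this dose lay on slide 1. Nr1d2 differed by -0.41 ± 0.24 at 60 mg/kg/day (SE; limma, adjusted p = 0.786), and within slides by -0.95, 0.09 and -0.08. For both Nr1d genes the lower mean at 60 mg/kg/day was widest within slide 1. Slides 1, 2 and 3 again set 2 ovaries against 2, 3 against 1 and 1 against 2.

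Dbp averaged 2.08 ± 0.20 (n = 4), 2.15 ± 0.49 (n = 5) and 1.90 ± 0.23 (n = 6) at 0.06, at 20 and at 60 mg/kg/day, against 1.85 ± 0.47 (SD, n = 5) at 0 mg/kg/day. Its differences of 0.23, 0.30 and 0.05 log2 had 95% intervals from -0.28 to 0.74, from -0.18 to 0.77 and from -0.40 to 0.51. Tef differed by 0.19, 0.13 and 0.09, with SE of 0.23, 0.22 and 0.21. The means of both D-box genes were above that at 0 mg/kg/day at each dose, by less than the SD at 0 mg/kg/day, and none of these differences passed.

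Per1 differed by -0.19, -0.04 and -0.27 log2 at 0.06, at 20 and at 60 mg/kg/day. Per3 differed by -0.21, 0.04 and -0.31. With slide as a block the Per1 values were -0.12, -0.14 and -0.16 and those of Per3 -0.12, -0.07 and -0.19. Cry2 differed by -0.21, 0.02 and -0.14, and with slide as a block by -0.16, -0.06 and -0.08. For these slide-linked genes the difference at 20 mg/kg/day changed sign in Per3 and Cry2, and none passed.

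Cry1 differed by -0.13, -0.22 and -0.04 at 0.06, at 20 and at 60 mg/kg/day. Clock, with the narrowest intervals, differed by 0.11, 0.06 and 0.16; at 60 mg/kg/day its interval ran from -0.11 to 0.42. These intervals bound what 4 to 6 ovaries a group can show, and they do not show that the groups were equal.

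**Figure D4:**
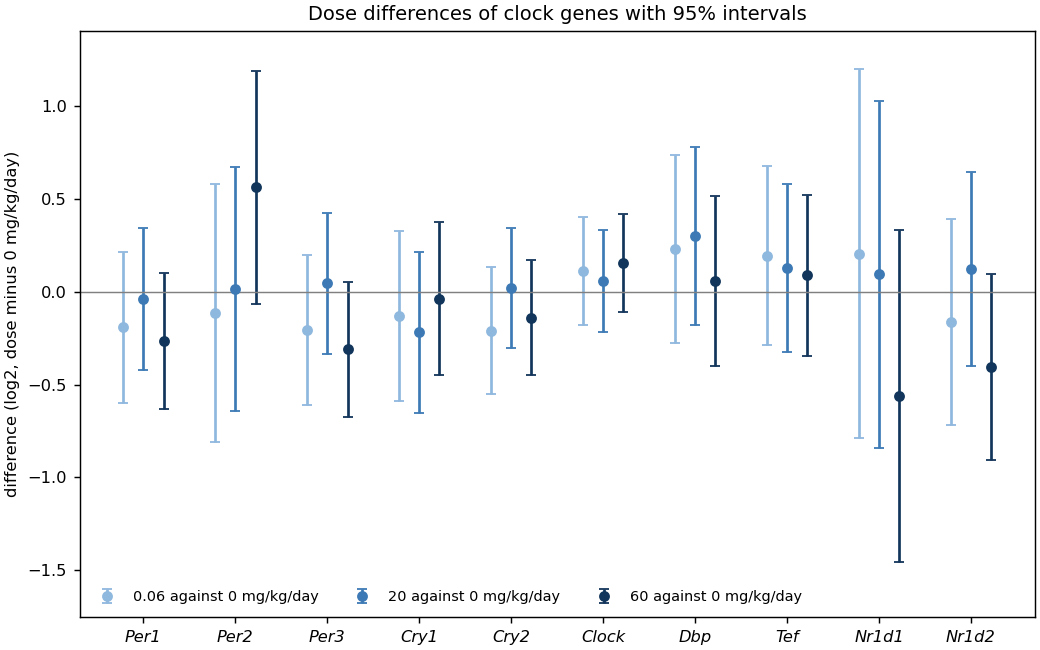
Difference in log2 signal of each clock gene at 0.06, 20 and 60 against 0 mg/kg/day, as points with the 95% interval of the limma fit. Every interval includes 0, and those of Nr1d1 are the widest and those of Clock the narrowest.

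Of the other genes of the clock pathway, 18 of 25 were measured, and the others are not reported here. None was called at any dose, and 0, 2 and 1 had an unadjusted p under 0.05 at 0.06, at 20 and at 60 mg/kg/day. Their median differences were -0.07, -0.08 and -0.04. Csnk1d, a kinase gene whose product marks PER for decay, differed by -0.18 at 20 mg/kg/day (limma, adjusted p = 0.929). Timeless, a replication fork gene with a debated clock role in mammals, differed by 0.31 at 20 (limma, adjusted p = 0.929) and 0.31 at 60 mg/kg/day (adjusted p = 0.782).

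Set against Dbp, Nr1d1 and Per2, these 18 genes gave 54 correlations, of which 0 passed after adjustment. Nfil3 and Dbp had the strongest, r = -0.65 (permutation adjusted p = 0.0871) and rho = -0.49 (adjusted p = 0.247), and r was -0.37 without the 2 arrays farthest from the median of Dbp. Csnk1d and Per2 had r = 0.62 (permutation adjusted p = 0.0871) and rho = 0.58 (adjusted p = 0.187), with 0.80, 0.80 and 0.45 within the slides. Nampt, a known clock-controlled gene of NAD synthesis, had r = -0.59 with Dbp (permutation adjusted p = 0.0871) and rho = -0.55 (adjusted p = 0.187). Within slides 1, 2 and 3 that r was -0.72, 0.11 and -0.88. Wee1 had r = -0.59 with Nr1d1 (permutation adjusted p = 0.0871) and rho = -0.47 (adjusted p = 0.289). For Wee1 r was -0.22 without the 2 arrays farthest from the median of Nr1d1, and -0.88, 0.36 and -0.33 within the slides.

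A slope on Dbp was then fitted to every other probe with dose means in the fit, which asks what co-varied with this clock output among ovaries of the same dose. limma called 0 of 23255 probes, while 9.44% had an unadjusted p under 0.05. Tef had the smallest p of all of them, with a slope of 0.76 ± 0.14 log2 per log2 of Dbp (SE; limma, adjusted p = 0.411). With slide as a block Tef ranked 2 and its slope was 0.76.

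Of the 9 members other than Dbp, 2 had an unadjusted p under 0.05, Tef and Nr1d2, both positive, where 4.84% of all probes had such a positive slope. This count takes the brightest probe of each gene, and for Per3 the probes disagreed: the brightest had a slope of 0.16 (unadjusted p = 0.431 in limma), and the other 2 had slopes of 0.44 and 0.82 (unadjusted p = 0.0201 and 0.0103 in limma, adjusted p = 0.443 and 0.415). Nr1d2 had a slope of 0.70 ± 0.21 (SE; limma, adjusted p = 0.411). Of the 18 other clock genes, 3 had an unadjusted p under 0.05, all negative, where 4.60% of all probes had such a negative slope. These were Nampt with -0.50, the D-box repressor gene Nfil3 with -0.76 and Bhlhe40, which encodes an E-box repressor, with -0.99.

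By Pearson's r on deviations from dose means over 20 arrays, the named genes outside the clock most like Dbp were Dennd2d (0.81), Clasp2 (0.77), Msl3l2 (0.76), Surf2 (0.76) and Tbccd1 (0.75). Those most opposed were Mpc1 (-0.75), Gnpnat1 (-0.75), Ywhah (-0.73), Lrrc8a (-0.72) and Ankfy1 (-0.71). They are the ends of a list of many probes and none was called by the slope fit, so the order is a description.

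Of the marker lists of ovarian cells, 8 of 9 granulosa, 6 of 6 theca or interstitial, 6 of 6 luteal and 7 of 9 oocyte markers were measured. Measured means only that a probe passed the background filter, which 7 of 7 macrophage markers also did. These counts therefore do not test the label ovary. Lists for 10 cell types, an immediate early list and a glucocorticoid-responsive list were each set against Dbp, Nr1d1 and Per2, and 0 of these 36 correlations passed. The oocyte list against Nr1d1 was strongest, with r = -0.56 (permutation adjusted p = 0.196) and rho = -0.63 (adjusted p = 0.136), and r was -0.26 without the 2 arrays farthest from the median of Nr1d1. The smooth muscle list, of which 5 of 5 were measured, had r = -0.56 with Per2 (permutation adjusted p = 0.196) and rho = -0.49 (adjusted p = 0.284).

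The oviduct epithelium list, of which 8 of 10 were measured, was like Per1, Per3 and Cry2 highest on slide 3. The mean deviation of its genes from their level over all arrays was -0.08, -0.46 and 0.47 log2 on slides 1, 2 and 3. The log2 of its mean signal ran from -1.90 to -1.06 at 0.06, from -1.99 to -0.97 at 20 and from -1.74 to -1.13 at 60 mg/kg/day, against -1.78 to -1.11 at 0 mg/kg/day. Its part in the values of these 3 genes was not tested.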

How the data were processed

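RNA of 20 whole ovaries was hybridised to 1-colour Agilent arrays, 1 animal per array, from independent litters per the labels. Per the file headers, the deposited scanner files hold spot intensity on a linear scale, background-corrected by Feature Extraction 11.5.1.1 under protocol GE1_1105_Oct12. The authors also deposited a table of log2 values of the same arrays with unstated normalization and centring. Column medians lay between -0.07 and 0.08. The submitters took out replicate 4 at 0.06 mg/kg/day, per the labels, and it was not analysed here.

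Processed signals were scaled to each array's 75th percentile over non-control spots (1158 to 1737) and taken to log2. Outlier spots were left out and spots of a probe averaged; 32 probes without a remaining spot on some array were dropped. On each array 74.8% to 83.4% of spots were well above background, and probes that were so on at least 4 arrays were kept. The number of arrays limits the precision. Of 30367 probes, 18758 had a symbol through accessions of the GRCr8 table and 11609 had none. Group means were fitted over all arrays with limma 3.58.1 (R 4.3.3), with Benjamini-Hochberg adjustment at 0.05 over all probes; it was tested on simulated data. Permutation tests used 100000 resamples in Python 3.11.15. In the normexp alternative (offset 50) the median spot signal was used. Named genes were the members, the measured genes of the clock lists, and the 5 named genes most and least like Dbp; members and lists were chosen with earlier results of these data known. Alternatives were quantile normalization, normexp, other filters, slide, spike-in set (9 arrays have a spike-in slope of 0 in the headers) or replicate number as a block, the authors' table, the mean of all probes and leaving out each array.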

Additional observations from a re-analysis of the deposited data

Results flagged for a closer look

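In 8 of 112 sets of values, 1 gene in 1 dose group each, over 28 clock genes, 1 ovary lay far from the others of its group by Dixon's ratio of gap to range; chance marks about 1 in 20. Among the members, Cry2 was -3.37 in replicate 5 at 0.06 mg/kg/day, where the nearest other value was -4.05; this ovary lay on slide 3, and no other of its group did. Dbp was 1.77 in replicate 1 at 0.06 mg/kg/day, with the others between 2.16 and 2.21. Nr1d1 was -3.94 in replicate 3 at 20 mg/kg/day, with the others between -2.36 and -1.80.

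Replicate 4 at 20 mg/kg/day stood apart for Nfil3 at -2.67 and for Gsk3b at -0.068. Prkaa1 was -2.15 in replicate 1 at 0 mg/kg/day, with the others at -3.07 or below. Timeless was -2.17 in replicate 2 at 0.06 mg/kg/day and -1.48 in replicate 1 at 20 mg/kg/day. No explanation of these values was tested.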

How the results depend on the processing

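No probe was called at any dose or jointly under any alternative, with the replicate block among them. Same-numbered ovaries showed no clear likeness: 8 of 27 pairs had a correlation above 0.1, with a mean of 0.005. Among pairs with different numbers it was 42 of 122, with a mean of -0.0009. Of the same-numbered pairs 16 shared a slide, and pairs on the same slide had a mean of 0.16. With slide mixed in, this check cannot exclude that the numbers pair the ovaries. With the replicate block 7 member pairs passed, 4 positive and 3 negative: Per1 with Cry2, Per3 with Cry2 and Dbp with Nr1d2 were lost, and Per2 with Nr1d2 was gained at r = -0.67 (permutation adjusted p = 0.00643). The slope on Dbp called 1 probe, Dlgap1, in the authors' deposited table and 0 otherwise. The count of member pairs was 9, 7 with quantile normalization, 7 with normexp, 8 with the mean of all probes (Per1 with Per3 and Per3 with Cry2 lost, Per3 with Nr1d2 gained), 9 in the authors' table, 6 with slide as a block and 7 on deviations from dose and slide means. That last setting was added after seeing the data. It gained Per3 with Clock, a positive relation at r = 0.61 (permutation adjusted p = 0.0302). The count ran from 8 to 10 without 1 array, with 8 without replicate 4 at 20 or without replicate 2 at 60 mg/kg/day. Tef ranked 118 by p for the slope on Dbp with the replicate block, 3 in the authors' table and 1 to 4 without 1 array.

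Of 30 member differences 15 changed sign under some alternative, none of them above 0.193 in size, and none passed the test under any. With normexp, Per1 was 0.098 at 0.06 and 0.078 at 20 mg/kg/day, and Nr1d2 was 0.017 at 0.06. With quantile normalization, Per2 was -0.027 and Cry2 -0.022 at 20. With slide as a block, Per3 was -0.073 and Cry2 -0.058 at 20, and Cry1 0.094 at 60. Per2 was -0.021 at 20 with the spike-in set as a block, Per3 -0.051 at 20 with the mean of all probes, and Cry2 -0.013 at 20 in the authors' table. The cause was not tested.

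Leaving out 1 array at a time, the differences at 20 mg/kg/day ran from -0.16 to 0.071 for Per1, from -0.18 to 0.26 for Per2, from -0.042 to 0.15 for Per3, from -0.057 to 0.11 for Cry2, from -0.0062 to 0.16 for Clock, from -0.0092 to 0.26 for Tef, from -0.073 to 0.46 for Nr1d1 and from -0.11 to 0.30 for Nr1d2. At 0.06 mg/kg/day they ran from -0.31 to 0.13 for Per2 and from -0.30 to 0.025 for Cry1. At 60 mg/kg/day they ran from -0.12 to 0.068 for Cry1, from -0.075 to 0.20 for Dbp and from -0.050 to 0.22 for Tef. Signal over background limits the dimmest Per3 probe, well above background on 13 arrays.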
